A study of Mus musculus with 23 samples.

Results

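TRBJ2 is the second of a pair of joining-segment clusters in the mouse T cell receptor beta (TRB) locus. Its members were the TRB entries of the deposited table whose J segment was TRBJ2-1, TRBJ2-2, TRBJ2-3, TRBJ2-4, TRBJ2-5 or TRBJ2-7, which are 6 of the 12 TRBJ segments in the table. They carried 24667 of 35389 distinct TRB clonotypes, a clonotype being a distinct CDR3 loop in amino acids with its V and J segments. The other 10722 used the TRBJ1 cluster. The annotated pseudogene TRBJ2-6 had 0 entries.

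A beta chain is made when a V segment is joined to a D segment and a J segment, and the CDR3 loop that spans the joint meets the peptide. TRBJ2 lies downstream of the second D segment, Dbeta2, and can join Dbeta1 or Dbeta2, whereas TRBJ1 lies upstream of Dbeta2 and as a rule joins Dbeta1. Chains of the TRBJ2 cluster are spliced to the constant gene TRBC2 and those of TRBJ1 to TRBC1. The J segment supplies the last residues of the loop, up to the phenylalanine at its end.

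TCR transcripts were counted in 23 libraries from a syngeneic mouse model of melanoma, made with a UV-exposed derivative of the Nras Q61R line NIL. The groups were trametinib (a MEK inhibitor) with BGB-283 (a RAF inhibitor), called combination, at D11 (n = 3) and D4 (n = 3), trametinib alone at D11 (n = 3) and D4 (n = 3), BGB-283 alone at D11 (n = 3) and D4 (n = 3), and untreated control at D11 (n = 2) and D4 (n = 3). The labels do not give the day from which D is counted, nor doses, nor whether each library is a different animal, and p-values therefore refer to the spread between libraries, part of which may be technical. No cell type markers can be checked, since only TCR transcripts were measured.

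TRB counts per library ran from 32534 to 320420 and TRB clonotypes from 214 to 5172. At these depths the exact 95% binomial interval of the TRBJ2 share was at most ± 0.51 points wide for counts and between ± 1.25 and ± 6.73 points for clonotypes, which covers counting error only, as counts are reads and not molecules. The lowest value in the table above 0 was 3, and 47.9% of TRB values were under 20, so absence from a library means listed at 0. No library was a copy of another, and no pair of libraries shared more than 4.67% of the TRB clonotypes of the smaller.

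The loop ends are shown because they differ from member to member. Each is the longest ending held by at least 50% of the clonotypes of its segment, read from the deposited CDR3 sequences.
TRBJ2-1: YAEQFF
TRBJ2-2: NTGQLYF
TRBJ2-3: AETLYF
TRBJ2-4: QNTLYF
TRBJ2-5: QDTQYF
TRBJ2-7: YEQYF
TRBJ2-1 ends in a pair of phenylalanines and the other members in tyrosine and phenylalanine. The full ending was present in 83.1% of TRBJ2-3, 70.3% of TRBJ2-1, 69.1% of TRBJ2-4, 64.6% of TRBJ2-7, 55.8% of TRBJ2-5 and 53.2% of TRBJ2-2 clonotypes. In the remainder at least 1 of these residues differed.

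The following clonotypes are shown because they held large shares of a library, the first 3 being the largest of their members, or because they recurred in the most libraries. Loops of 15 or more residues are described further on without their letters.
TRBJ2-3 with TRBV16, 43.6% of TRB counts in BGB-283 D4 replicate 2: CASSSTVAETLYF
TRBJ2-7 with TRBV12-1, 30.8% in control D4 replicate 3: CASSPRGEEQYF
TRBJ2-5 with TRBV16, 25.0% in control D4 replicate 2: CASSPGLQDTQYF
TRBJ2-7 with TRBV3, 21.6% in combination D11 replicate 2 and 13.0% in BGB-283 D4 replicate 3: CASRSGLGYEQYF
TRBJ2-4 with TRBV17, 10.1% in combination D4 replicate 3: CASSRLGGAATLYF
TRBJ2-4 with TRBV19, in 13 libraries: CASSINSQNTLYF
TRBJ2-5 with TRBV12-2, in 12 libraries: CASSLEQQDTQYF
TRBJ2-5 with TRBV2, in 12 libraries: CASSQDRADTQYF
TRBJ2-7 with TRBV1, in 9 libraries: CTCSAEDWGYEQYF
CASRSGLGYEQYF and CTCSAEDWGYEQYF hold GLG and DWG, the glycine-rich readings of Dbeta2 counted next. The most widely shared loops reached at most 2.73%, 1.19%, 5.77% and 2.33% of the TRB counts of any library in the order given.

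TRBJ2 loops carried Dbeta2 readings far more often than TRBJ1 loops. DWG or GLG, which the Dbeta2 reading frames can give and those of Dbeta1 cannot, stood inside the CDR3 (after its first 3 and before its last 3 residues) in 12.7% ± 2.14 of TRBJ2 clonotypes and 0.454% ± 0.509 of TRBJ1 clonotypes (SD over 23 libraries). The share was higher for TRBJ2 in 23 of 23 libraries, by 12.2 points on average (paired permutation test, 100000 sign changes, adjusted p = 5e-05 over 5 such tests, from the smallest p of 1e-05 that these changes can give). DRG or GQG, which Dbeta1 and not Dbeta2 can give, stood in 4.63% ± 1.00 of TRBJ2 and 8.12% ± 2.94 of TRBJ1 clonotypes. That share was lower for TRBJ2 in 20 of 23 libraries, by 3.49 points on average (paired permutation test, adjusted p = 0.0003). Added residues can spell the same letters, so a match describes the loop and does not identify the D segment.

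Within the cluster the Dbeta2 reading was present in every member. It averaged 14.9% ± 3.88 in TRBJ2-7, 12.8% ± 3.27 in TRBJ2-1, 11.9% ± 3.52 in TRBJ2-5, 11.9% ± 2.79 in TRBJ2-3, 11.7% ± 4.43 in TRBJ2-4 and 8.35% ± 5.22 in TRBJ2-2 clonotypes. The 6 TRBJ1 segments lay between 0.121% and 0.807%. The residue just in front of the place of the J ending was often glycine. It was glycine in 35.2% of TRBJ2-2, 32.5% of TRBJ2-5, 32.2% of TRBJ2-7, 27.1% of TRBJ2-4, 25.7% of TRBJ2-1 and 23.8% of TRBJ2-3 clonotypes. In TRBJ1 segments the share ran from 14.7% (TRBJ1-4) to 29.3% (TRBJ1-3), so the clusters overlapped. The place was counted from the end of the loop in all clonotypes, with or without the full ending. It depends on where each shared ending was cut, and whether the D or the J segment supplied the residue was not tested.

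**Figure D1:**
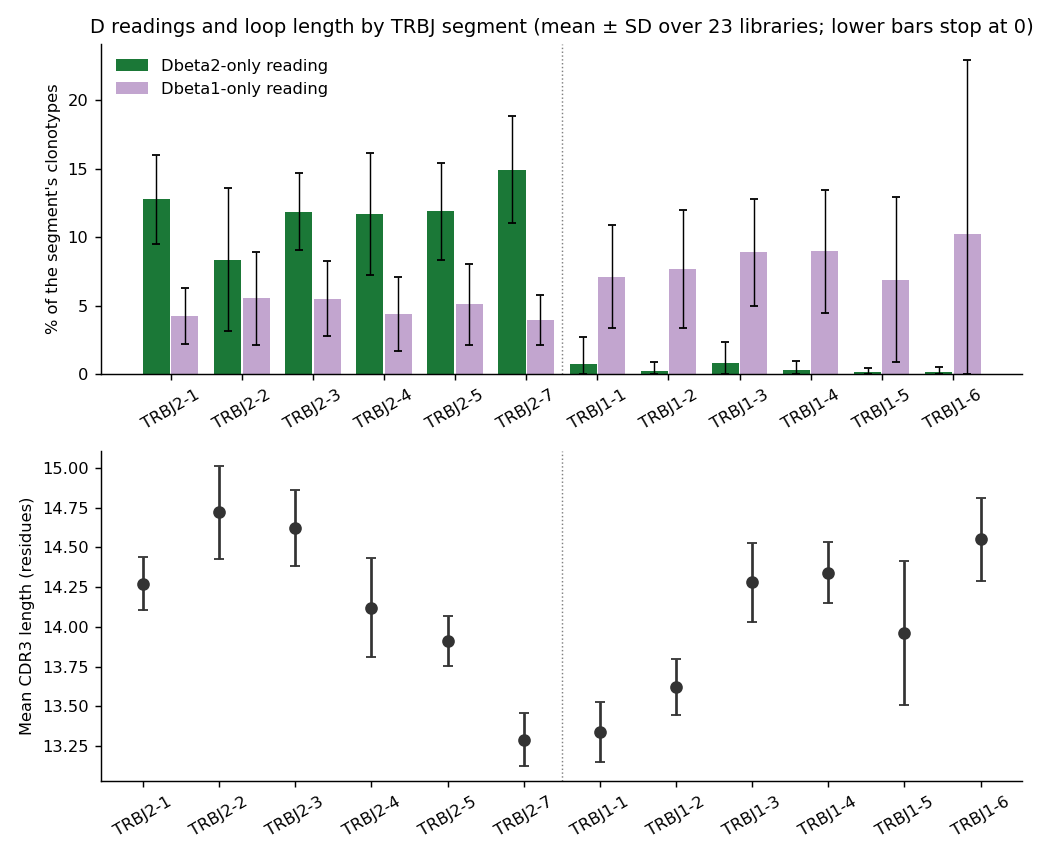
The upper panel gives, for each TRBJ segment, the percentage of its clonotypes with a Dbeta2-only (green) or Dbeta1-only (violet) reading, and the lower panel the mean CDR3 length in residues. Bars and points are means over 23 libraries with SD. The Dbeta2 reading stands at 8.35% or more in every TRBJ2 segment and at 0.807% or less in every TRBJ1 segment, and TRBJ2-7 has the shortest loops.

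Loop length differed more among TRBJ2 members than between the clusters. TRBJ2-7 loops averaged 13.29 ± 0.167 residues (SD over 23 libraries), TRBJ2-5 13.91 ± 0.156, TRBJ2-4 14.12 ± 0.311, TRBJ2-1 14.27 ± 0.166, TRBJ2-3 14.62 ± 0.241 and TRBJ2-2 14.72 ± 0.291. Against all other TRB clonotypes of the same library, 5 of 6 members differed, while 83.3% of the 12 TRBJ segments did (limma, adjusted over 12), so a difference in length was usual for a J segment. TRBJ2-7 was shorter by 0.85 residues (SE 0.0382, adjusted p = 3.61e-15 in limma). TRBJ2-2 was longer by 0.80 residues (SE 0.0574), TRBJ2-3 by 0.72 (SE 0.0553), TRBJ2-1 by 0.35 (SE 0.0394) and TRBJ2-4 by 0.18 (SE 0.0470), with adjusted p-values from 1.43e-11 to 0.00144 in limma. TRBJ2-5 differed by -0.06 residues (SE 0.0392, adjusted p = 0.152 in limma) and was not called, and the call of TRBJ2-4 was lost with median lengths.

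Counted in front of the J ending, the order of the members was another. There TRBJ2-3 loops held 8.62 residues on average, TRBJ2-7 8.29, TRBJ2-1 8.27, TRBJ2-4 8.12, TRBJ2-5 7.91 and TRBJ2-2 7.73. TRBJ2-2, which has the longest ending, had the fewest residues in front of it. These numbers are the loop length less the length of the segment's ending, also in clonotypes without the full ending. The length of the ending therefore enters the order by construction. Loops of 12 or fewer residues made up 28.3% ± 5.02 of TRBJ2-7 clonotypes but 5.36% ± 4.24 of TRBJ2-2 clonotypes. Loops of 16 or more residues made up 27.7% ± 6.91 of TRBJ2-3, 26.8% ± 8.55 of TRBJ2-2 and 3.99% ± 2.02 of TRBJ2-7 clonotypes.

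As a cluster, TRBJ2 loops averaged 13.99 ± 0.113 residues and TRBJ1 loops 13.92 ± 0.114. TRBJ2 loops were the longer in 18 of 23 libraries, by 0.0743 residues on average (paired permutation test, adjusted p = 0.0185 over 5 tests). The call was lost when counts under 20 were set to 0 (0.0560 residues, adjusted p = 0.11) and with median lengths (a difference of 0), and the sign turned with clonotypes weighted by counts (-0.12 residues, adjusted p = 0.273, each a paired permutation test).

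TRBV partners were shared widely but not evenly between the clusters. Of 144 possible pairs of the 24 TRBV segments with a TRBJ2 member, 141 were found. TRBV16 had 3652 TRBJ2 clonotypes, TRBV29 had 2997 and TRBV19 had 2511. TRBV16 took the largest mean share of the clonotypes of every member, at 14.2% ± 4.55 of the clonotypes of TRBJ2-1, 16.1% ± 11 of TRBJ2-2, 18.1% ± 7.91 of TRBJ2-3, 15.8% ± 4.95 of TRBJ2-4, 17.2% ± 6.51 of TRBJ2-5 and 16.4% ± 4.03 of TRBJ2-7. In clonotypes pooled over all libraries, where large libraries weigh more, it came first for 5 of 6 members, and for TRBJ2-2 TRBV29 had 301 and TRBV16 289.

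Between TRBJ2 and TRBJ1 clonotypes of the same libraries, 14 of 24 TRBV segments (58.3%) differed in edgeR's quasi-likelihood test, 6 taking a larger share of TRBJ2 and 8 a smaller one. TRBV17 had the smallest p-value: it took 6.44% ± 1.87 of TRBJ2 and 3.17% ± 0.966 of TRBJ1 clonotypes, was higher in TRBJ2 in 22 of 23 libraries, and differed by 1.04 on the log2 scale (SE 0.101, adjusted p = 1.36e-21 in edgeR). TRBV16 took 16.4% ± 2.73 of TRBJ2 and 13.3% ± 3.20 of TRBJ1 clonotypes (log2 0.29, adjusted p = 1.76e-05 in edgeR). TRBV3 (log2 0.28), TRBV12-2 (log2 0.26) and TRBV30 (log2 1.05, on 130 TRBJ2 and 25 TRBJ1 clonotypes) were also higher, with adjusted p-values from 0.000601 to 0.00882 in edgeR, the calls of TRBV3 and TRBV12-2 being lost with counts under 20 set to 0.

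The partners that took a smaller share of TRBJ2 included common segments. TRBV29 took 12.1% ± 2.62 of TRBJ2 and 15.4% ± 3.89 of TRBJ1 clonotypes and was higher in TRBJ2 in 2 of 23 libraries (log2 -0.37, adjusted p = 1.95e-08 in edgeR). TRBV19 took 10.7% ± 1.89 and 13.0% ± 4.06 (log2 -0.26, adjusted p = 0.000326 in edgeR). TRBV13-1 (log2 -0.57), TRBV1 (log2 -0.33) and TRBV26 (log2 -0.57) were also lower, with adjusted p-values from 0.000326 to 0.0015 in edgeR. Among members, TRBV17 took 9.17% ± 4.70 of TRBJ2-1, 7.31% ± 5.08 of TRBJ2-2 and 6.48% ± 3.11 of TRBJ2-5 clonotypes, against 4.72% ± 2.94 of TRBJ2-4 and 4.74% ± 2.68 of TRBJ2-3.

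**Figure D2:**
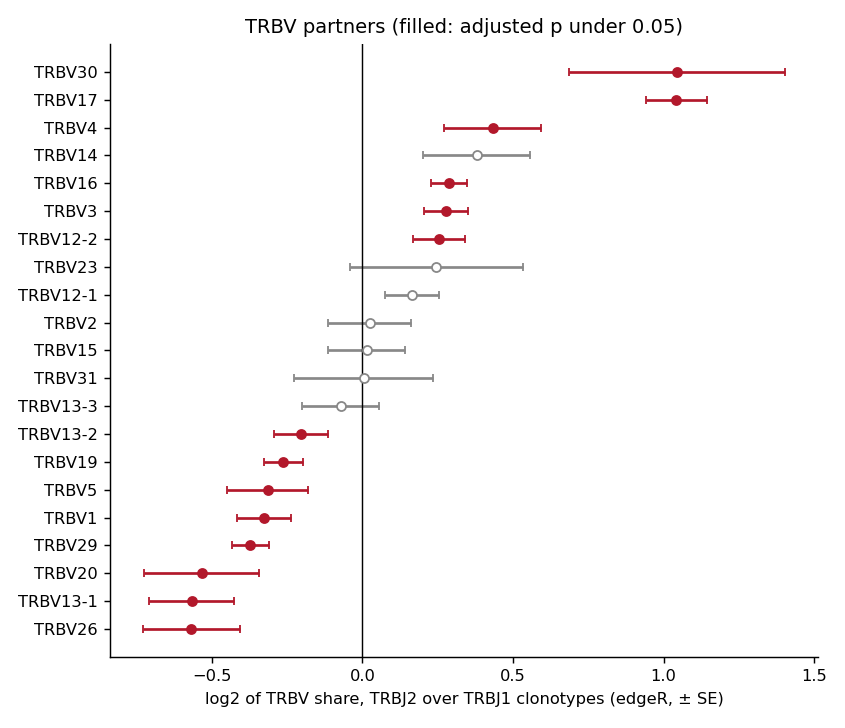
The log2 ratio of each TRBV segment's share of TRBJ2 over its share of TRBJ1 clonotypes, with the standard error from edgeR, over 23 libraries. TRBV17 and TRBV30 stand near 1, and TRBV26 and TRBV13-1 near -0.57. TRBV21, TRBV22 and TRBV24, which had the fewest clonotypes and were not called, are not drawn.

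TRBJ2 made up most of the beta repertoire in clonotypes, with little spread, and a more variable share of counts. It held 65.8% to 72.8% of TRB clonotypes (median 70.0%) and 49.5% to 83.6% of TRB counts (median 74.7%), and more than 50% of counts in 22 of 23 libraries. The exception was BGB-283 D11 replicate 2. The share of counts was above the share of clonotypes in 15 of 23 libraries, by 2.27 points on average, which did not pass the test (paired permutation test, adjusted p = 0.273). In bulk RNA, fewer cells with a segment and less receptor RNA per cell cannot be told apart.

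On average over libraries TRBJ2-7 was the most used member in clonotypes and in counts, while the order of the members changed between libraries. TRBJ2-7 averaged 20.2% ± 1.72 of TRB clonotypes (SD, 23 libraries), TRBJ2-1 14.2% ± 1.57, TRBJ2-5 11.9% ± 1.69, TRBJ2-3 9.70% ± 1.22, TRBJ2-4 8.52% ± 1.09 and TRBJ2-2 5.17% ± 0.995. In counts the averages were 21.3% for TRBJ2-7 (range 6.32% to 40.5%), 17.2% ± 8.01 for TRBJ2-5, 12.3% ± 10.04 for TRBJ2-3, 10.2% ± 4.65 for TRBJ2-1, 6.67% ± 4.19 for TRBJ2-4 and 4.22% ± 4.57 for TRBJ2-2. The ranges of neighbouring members overlapped on both measures, and in control D4 replicate 2 TRBJ2-5 (16.4% of clonotypes) and TRBJ2-1 (16.1%) stood above TRBJ2-7 (14.2%). The widest range belonged to TRBJ2-3, from 2.25% to 52.8% of counts, where the highest library was BGB-283 D4 replicate 2 with its 43.6% clonotype.

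TRBJ2-5 clonotypes held more counts each than the average TRB clonotype, and TRBJ2-1, TRBJ2-2 and TRBJ2-4 held fewer. The log2 ratio of the share of counts to the share of clonotypes was 0.36 for TRBJ2-5 (SE 0.125, adjusted p = 0.0100 in limma). It was -0.59 for TRBJ2-1 (SE 0.133, adjusted p = 0.00049), -0.69 for TRBJ2-2 (SE 0.160, adjusted p = 0.00049) and -0.58 for TRBJ2-4 (SE 0.160, adjusted p = 0.00225), all in limma. TRBJ2-3 (0.0045) and TRBJ2-7 (-0.08) were not called. Of all 12 TRBJ segments 66.7% were called, and the median log2 ratio was -0.33 over the 6 members and -0.58 over all 12, so a departure from 0 was usual for a J segment.

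**Figure D3:**
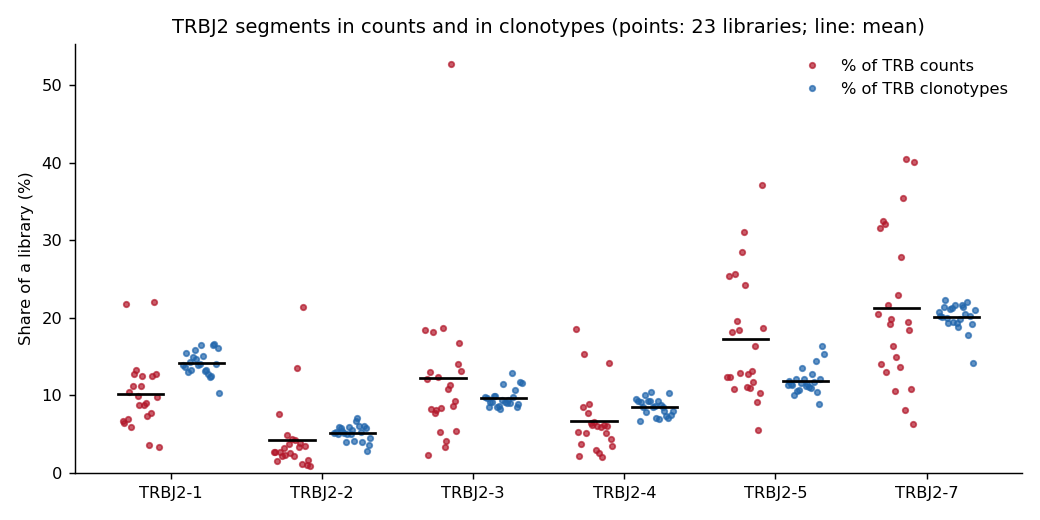
The share of each TRBJ2 segment in TRB counts (red) and in TRB clonotypes (blue), as a percentage of each of 23 libraries, with the mean as a line. The shares of clonotypes stay within 2.80% to 22.3%, while those of counts run from 0.949% to 52.8%.

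Likeness of pattern was taken as the Spearman correlation of log2 odds of the share of counts over the 23 libraries, which share depth and a fixed total. The TRBV segment most like TRBJ2-5 was TRBV3 (0.63), and the pair held 21.6% of the counts of TRBJ2-5. TRBJ2-4 was most like TRBV17 (0.55, with 15.5% of its counts in the pair), TRBJ2-2 most like TRBV26 (0.66, 1.60%), TRBJ2-7 most like TRBV1 (0.51, 3.07%), TRBJ2-1 most like TRBV2 (0.48, 6.81%) and TRBJ2-3 most like TRBV13-3 (0.31, 1.17%). Among J segments, TRBJ2-1 and TRBJ2-4 were both most like TRBJ1-2 (0.57 and 0.54), and the highest values of the other members were 0.21 or less.

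Large clonotypes, defined as 1% or more of the TRB counts of their library, mostly used TRBJ2, about as often as clonotypes did as a whole. Of 274 large clonotypes, each counted once in every library where it was large, 197 used TRBJ2 (71.9%). Within libraries the TRBJ2 share of large clonotypes was 0.525 points above its share of all clonotypes, which did not pass the test (paired permutation test, adjusted p = 0.881). TRBJ2-5 supplied 64 of them, in 22 libraries, TRBJ2-7 53, TRBJ2-3 37, TRBJ2-1 21, TRBJ2-4 14 and TRBJ2-2 8. TRBJ2-5 supplied 23.4% of large clonotypes beside its mean share of 11.9% of clonotypes, a contrast that was not tested by itself.

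The largest TRB clonotype of the library used TRBJ2 in 19 of 23 libraries, and 16 of the 22 clonotypes of 10% or more did. Of the 197 large TRBJ2 clonotypes, counted by library, 124 were listed in 1 library alone. The rest were listed in 2 or more. Of all TRBJ2 clonotypes, each counted once, 4.17% were so listed. A clonotype that was large in several libraries enters the 197 repeatedly, so these shares are not like for like and were not compared. Of the 197, 153 had 14 or fewer residues. The mean over TRBJ2 clonotypes was 13.99, and the share of them with 14 or fewer residues was not counted. The number therefore does not say whether large clonotypes were shorter than the rest. The largest TRBJ2-2 clonotype had 15 residues and TRBV16, and held 17.6% of control D11 replicate 1. The largest TRBJ2-1 clonotype had 17 residues and TRBV2, and held 14.5% of control D11 replicate 2. The largest TRBJ2-4 clonotype had 16 residues and TRBV29, and held 13.4% of combination D11 replicate 1.

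Sharing between libraries was limited in both clusters. Of TRBJ2 clonotypes 4.17% (1028) were listed in 2 or more libraries and 70 in 4 or more, against 3.01% (323) and 23 of TRBJ1. By member the share in 2 or more libraries ran from 5.20% for TRBJ2-7 and 4.91% for TRBJ2-5 to 2.46% for TRBJ2-2, which had 0 in 4 or more. TRBJ2 clonotypes in 4 or more libraries had a mean loop of 13.37 residues and those in 1 library 14.05. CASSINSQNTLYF, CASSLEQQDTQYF and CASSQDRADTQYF, printed above, were each found under all 4 treatments.

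At D11 against D4, TRBJ2 held a smaller share of clonotypes. The share averaged 68.7% ± 1.49 at D11 (n = 11) and 70.5% ± 1.31 at D4 (n = 12), a difference within treatments of -1.84 points (exact permutation test stratified by treatment, 80000 permutations, adjusted p = 0.0199 over 6 contrasts). The call was lost with same-number libraries paired as a replicate block (-1.75 points, adjusted p = 0.082, exact permutation test) and without control D11 replicate 2 (-1.65 points, adjusted p = 0.107, exact permutation test). It held after thinning every library to 32534 TRB counts (-1.91 points, adjusted p = 0.013, exact permutation test). With counts under 20 set to 0 the difference was smaller but passed (-1.22 points, adjusted p = 0.03, exact permutation test). Without near copies of larger clonotypes it was also smaller and passed (-1.42 points, adjusted p = 0.0118, exact permutation test). Clonotypes per library overlapped between the days, from 298 to 4328 at D11 and from 214 to 5172 at D4.

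By treatment the share of clonotypes was 67.9%, 69.5% and 70.5% in the trametinib D11 libraries, against 71.5%, 70.8% and 72.8% in the trametinib D4 libraries. It was 65.8%, 68.9% and 69.3% in the BGB-283 D11 libraries, against 70.6%, 71.1% and 70.8% in the BGB-283 D4 libraries. In both treatments every D11 library lay below every D4 library, where 3 against 3 cannot go under an exact permutation p of 0.1. The combination libraries had 70.5%, 70.0% and 67.2% at D11, against 69.9%, 70.1% and 70.7% at D4, and overlapped. The control libraries had 68.8% and 67.3% at D11, against 67.3%, 69.5% and 70.8% at D4, and overlapped.

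The share of counts did not pass the test. It averaged 67.6% ± 11.3 at D11 and 75.9% ± 6.21 at D4, a difference within treatments of -8.19 points (exact permutation test, adjusted p = 0.309). The BGB-283 libraries had 55.0%, 49.5% and 74.7% at D11, against 76.7%, 82.0% and 80.7% at D4, with no overlap. The differences were -5.95 points in combination, -2.73 in trametinib and -4.02 in control libraries, all with overlap. In the libraries with the lowest shares, BGB-283 D11 replicates 1 and 2 and combination D11 replicate 3, large TRBJ1 clonotypes held 29.9%, 33.5% and 35.4% of TRB counts. The range was 0.0% to 21.2% over the other D11 libraries and 1.04% to 26.9% over the D4 libraries. TRBJ1 is the remainder of the same total, so high values were partly fixed by choosing libraries low in TRBJ2.

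**Figure D4:**
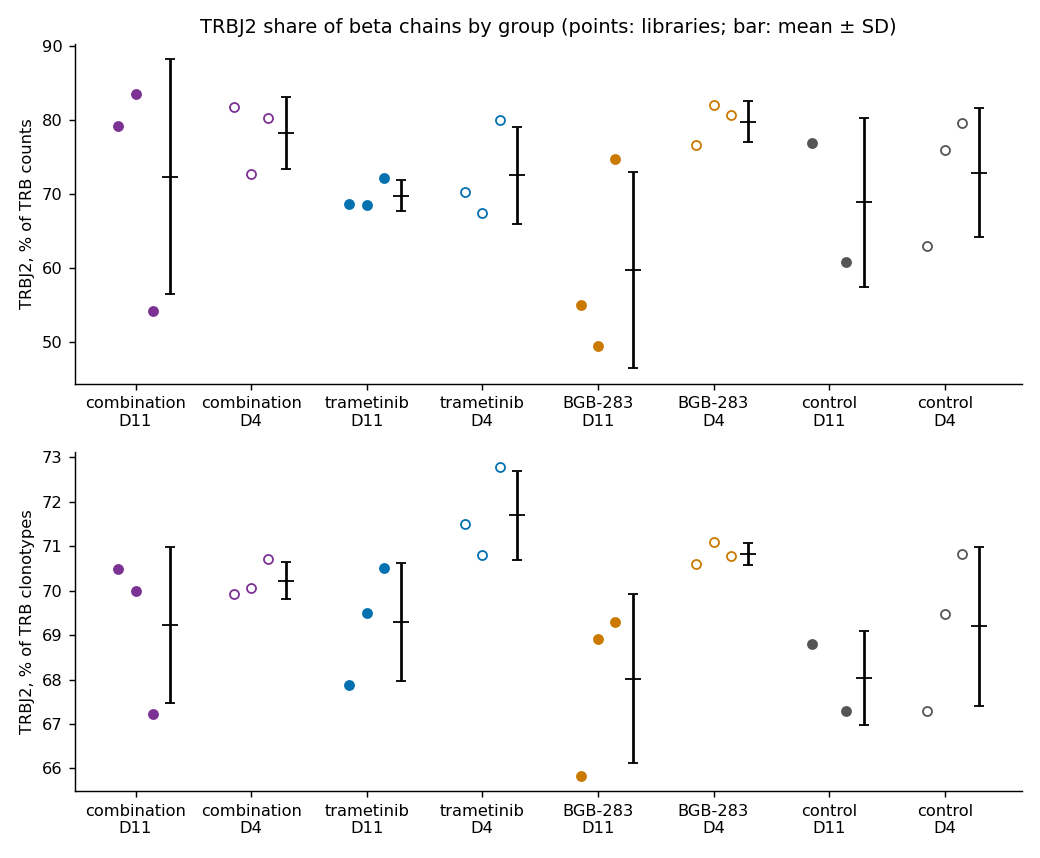
TRBJ2 as a percentage of TRB counts (top) and of TRB clonotypes (bottom) in the 8 groups, D11 filled and D4 open, with mean and SD beside the libraries; neither axis starts at 0. In clonotypes the trametinib and BGB-283 D11 libraries lie below their D4 libraries, and all neighbours in the order of group means overlap.

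Of the members, TRBJ2-5 fell in clonotypes at D11. It averaged 10.9% ± 0.807 of TRB clonotypes at D11 (n = 11) and 12.8% ± 1.85 at D4 (n = 12), a log2 difference of -0.25 (SE 0.0686, adjusted p = 0.00497 in edgeR over 12 segments). It was 1 of the 6 members called, where 16.7% of the 12 segments were. TRBJ2-1 (log2 0.14, adjusted p = 0.0766) and TRBJ2-3 (log2 -0.15, adjusted p = 0.107) had an unadjusted p under 0.05 in edgeR but were not called, and TRBJ2-2, TRBJ2-4 and TRBJ2-7 lay between -0.09 and 0.15. The TRBJ2-5 call was lost without control D11 replicate 2 (log2 -0.21, adjusted p = 0.118 in edgeR) and with counts under 20 set to 0 (log2 -0.20, adjusted p = 0.0716 in edgeR).

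TRBJ2-5 held 10.4% and 8.95% of clonotypes in the control D11 libraries, against 12.2%, 16.4% and 15.4% in the control D4 libraries. It held 11.5%, 11.04% and 10.9% in the BGB-283 D11 libraries, against 12.7%, 11.7% and 14.5% in the BGB-283 D4 libraries. In both treatments the days did not overlap. Trametinib libraries had 10.5%, 10.7% and 11.6% at D11, against 13.5%, 12.1% and 11.2% at D4. Combination libraries had 11.4%, 11.9% and 11.5% at D11, against 11.3%, 10.03% and 12.1% at D4. These 2 treatments overlapped between the days, and the combination mean was 0.410 points higher at D11.

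The change between days differed between combination and control libraries. The D11 against D4 difference of TRBJ2-5 in clonotypes was higher by 0.76 (log2) in combination than in control libraries (SE 0.214, adjusted p = 0.00644 in edgeR), 1 of the 6 members and 8.33% of the 12 segments. It rests on 2 control libraries at D11, and without control D11 replicate 2 it was 0.61 (adjusted p = 0.447 in edgeR). Without near copies of larger clonotypes it was 0.51 (adjusted p = 0.111 in edgeR). The corresponding differences for trametinib (0.55, adjusted p = 0.164) and BGB-283 (0.46, adjusted p = 0.313) were not called in edgeR, where 0.0% of the segments were.

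In counts no member was called at D11 against D4 by edgeR, nor was any of the 12 segments (0.0%), while 4 of 6 members had an unadjusted p under 0.05. Their log2 differences were 0.65 for TRBJ2-1, 0.93 for TRBJ2-2, -0.86 for TRBJ2-3 and -0.67 for TRBJ2-5, with adjusted p-values from 0.0642 to 0.0879 in edgeR. DESeq2 called 3 members, and edgeR with TMM factors called 2. TRBJ2-5 averaged 13.7% ± 5.49 of counts at D11 and 20.5% ± 8.77 at D4. In trametinib libraries it held 19.7%, 18.4% and 12.9% of counts at D11, against 28.5%, 31.1% and 24.3% at D4, and in control libraries 9.17% and 5.57%, against 10.3%, 37.1% and 18.7%, both without overlap.

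**Figure D5:**
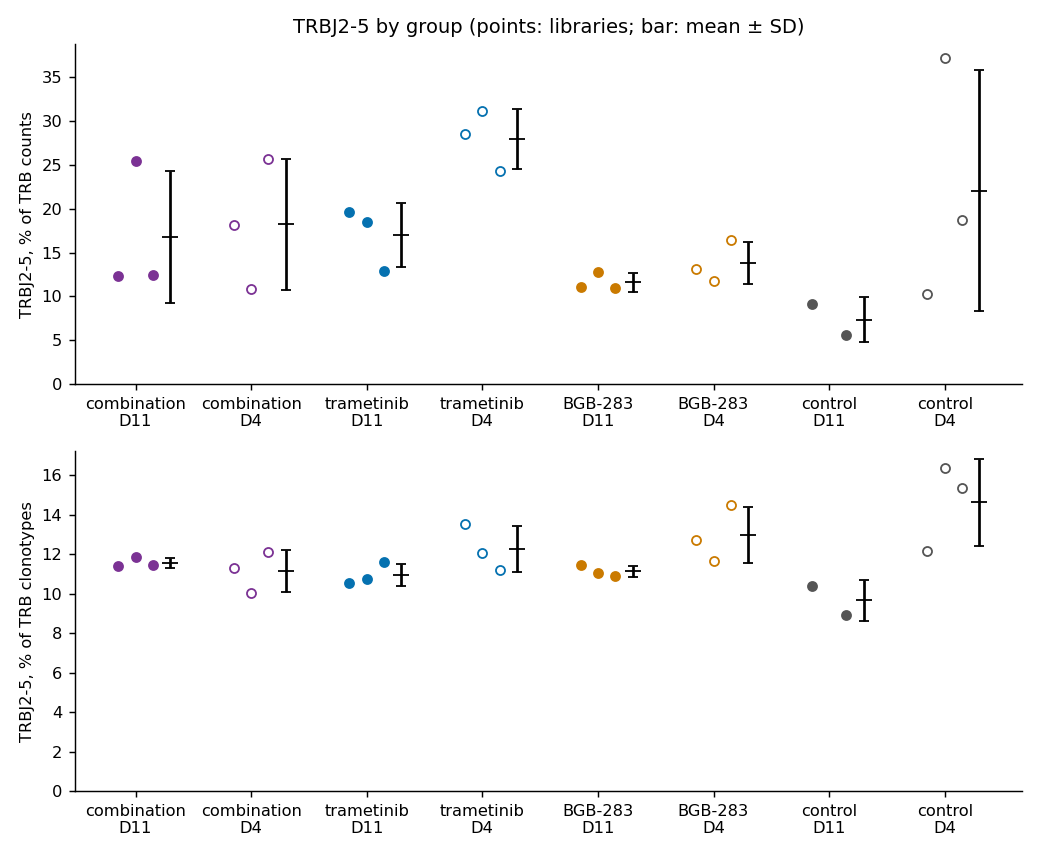
TRBJ2-5 as a percentage of TRB counts (top) and TRB clonotypes (bottom) in the 8 groups, D11 filled and D4 open, with mean and SD beside the libraries. In clonotypes the control and BGB-283 D11 libraries lie below their D4 libraries, and the combination libraries overlap between the days.

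TRBJ2-2 in counts gave the largest difference between treatments in its change from D4, and 1 control library stood far above the other control libraries. In control libraries it held 21.4% and 3.45% of TRB counts at D11, against 1.02%, 1.64% and 0.949% at D4. In combination libraries it held 2.68%, 2.67% and 1.55% at D11, against 7.55%, 2.70% and 2.16% at D4, and in trametinib libraries 3.19%, 2.29% and 4.84%, against 3.77%, 2.53% and 4.36%. The D11 against D4 difference was lower than in control by 4.21 on the log2 scale in combination (log2 -4.21, SE 1.15, adjusted p = 0.00534 in edgeR) and by 3.41 in trametinib libraries (log2 -3.41, SE 1.14, adjusted p = 0.0440 in edgeR). In each it was 1 of the 6 members and 8.33% of the 12 segments. The high library is control D11 replicate 1, whose TRBV16 clonotype of 15 residues held 17.6% of TRB counts, and without that library the differences were -2.37 (adjusted p = 0.275) and -1.57 (adjusted p = 0.736), not called in edgeR. For BGB-283 the difference was -2.13 (adjusted p = 0.252 in edgeR) and 0.0% of segments were called. In clonotypes TRBJ2-2 held 5.74% and 6.04% in the control D11 libraries, against 2.80% to 4.45% at D4, again without overlap. The corresponding differences in clonotypes were -0.72 for combination (adjusted p = 0.169), -0.75 for trametinib (adjusted p = 0.164) and -0.22 for BGB-283 (adjusted p = 0.898), not called in edgeR.

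Between treatments over both days no difference in the TRBJ2 share passed the test. Control libraries had 214 to 749 TRB clonotypes and combination libraries 1074 to 5172, without overlap. In that contrast treatment and the number of clonotypes listed cannot be told apart. The share of clonotypes averaged 69.7% ± 1.26 in combination (n = 6), 70.5% ± 1.68 in trametinib (n = 6), 69.4% ± 1.96 in BGB-283 (n = 6) and 68.7% ± 1.51 in control libraries (n = 5). The largest of the 5 differences was trametinib against control, 1.87 points (exact permutation test stratified by day, 200 permutations, p = 0.05, adjusted p = 0.15). Combination against control was 1.11 points, BGB-283 against control 0.801, combination against trametinib -0.764 and combination against BGB-283 0.308, with adjusted p-values from 0.41 to 0.655 in exact permutation tests. With counts under 20 set to 0, trametinib against control (2.05 points), combination against trametinib (-1.88) and combination against BGB-283 (-1.45) passed (adjusted p = 0.03 each, exact permutation tests).

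In counts the share averaged 75.3% ± 11 in combination, 71.2% ± 4.62 in trametinib, 69.8% ± 13.9 in BGB-283 and 71.3% ± 8.68 in control libraries. The differences against control were 4.42 points for combination, 0.293 for trametinib and -1.13 for BGB-283, and combination was 4.13 points above trametinib and 5.55 above BGB-283 (exact permutation tests, adjusted p from 0.758 to 0.945). For the change from D4 to D11 in the cluster's share, no difference of a drug from control passed on either measure (exact permutation tests, adjusted p from 0.825 to 0.95). In edgeR 0 of 6 members were called in each of the 5 treatment contrasts, in counts and in clonotypes, where 0.0% of the 12 segments were. The lone unadjusted p under 0.05 belonged to 1 member in counts, combination against BGB-283, and DESeq2 likewise called 0.

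For the share of a library held by large TRBJ2 clonotypes, no treatment contrast passed the test. They held 42.7% ± 9.26 of TRB counts in combination (n = 6), 22.98% ± 11 in trametinib (n = 6), 36.4% ± 20.5 in BGB-283 (n = 6) and 41.7% ± 13.3 in control libraries (n = 5). Trametinib D11 libraries had 22.6%, 9.34% and 15.95%, and trametinib D4 libraries 22.1%, 26.1% and 41.9%. Combination libraries had 43.1%, 51.4% and 32.5% at D11 and 53.8%, 31.6% and 43.8% at D4. The difference of trametinib against control was -17.3 points and of combination against trametinib 19.7 points, and neither passed (exact permutation tests, adjusted p = 0.075 for each, unadjusted p = 0.025 and 0.015).

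At D11 the large TRBJ2 clonotypes held 29.4% ± 16.8 of TRB counts, against 41.5% ± 12.2 at D4, a difference within treatments of -11.8 points that did not pass (exact permutation test, p = 0.0444, adjusted p = 0.0887). Without BGB-283 D11 replicate 3, where they held 55.0%, the difference was -15.2 points and passed (adjusted p = 0.045, exact permutation test). The value (19.7 points) and unadjusted p (0.015) of combination against trametinib do not use that library and stayed as they were, and its adjusted p became 0.045 in the exact permutation tests because it is adjusted together with D11 against D4. The mean number of large TRBJ2 clonotypes per library was 6.55 ± 3.47 at D11 and 10.4 ± 3.06 at D4, which was not tested. Mean TRBJ2 loop length was 14.04 ± 0.106 residues at D11 and 13.94 ± 0.102 at D4. The difference of 0.105 residues did not pass (exact permutation test, adjusted p = 0.315). It was 0.367 residues for control libraries, without overlap, and lay between -0.033 and 0.05 under the drugs. Control loops averaged 13.81 residues at D4, below every drug group (13.97 to 14.01). At D11 (n = 2) they averaged 14.18, above every drug group (13.98 to 14.03). Over both days these offset each other, and no treatment differed by more than 0.0149 residues in the 5 contrasts. Whether the change in length between days differed by treatment was not tested.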

How the data were processed

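The authors deposited one table of unscaled counts for 23 libraries, with a line for each combination of chain, V and J segment and CDR3 in amino acids. Per the labels, libraries were made from total RNA with QIAGEN's QIAseq Immune Repertoire kit. GRCh38, a human build, is the genome in the submitters' processing notes, although the samples are from mouse. Which tools aligned the reads and called clonotypes is not given in the sources used here. All counts above 0 are whole numbers and pile up at 20 (3655 values, against 804 at 19 and 509 at 21). The 182 TRB entries with an unresolved residue (0.0421% of TRB counts) were left out. Segment names were matched to RefSeq's mouse table (GRCm38.p6), 6 of 6 members and 24 of 24 TRBV, and its coordinates were not used.

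TRBJ2 is the rule of J names given at the start. Shares are percentages of a library's TRB counts or clonotypes. Group differences used two-sided exact permutation tests stratified by day or treatment (200, 400 or 80000 permutations), adjusted by Benjamini-Hochberg over 6 contrasts. For differences from control in the change between days, day labels were permuted within each treatment. Those tests were adjusted separately, over the contrasts of each drug with control. Within-library differences used paired permutation tests with 100000 sign changes. Segments and TRBV partners were tested on counts or numbers of clonotypes with edgeR 4.0.16 (quasi-likelihood, library totals as sizes, no filter), ratios and lengths with limma 3.58.1, with DESeq2 1.42.0 as an alternative, at a threshold of 0.05. On simulated counts with known changes the edgeR step was checked. All members were named. TRBV partners named were the most used and up to 5 called in each direction, and clonotypes named were the largest of each member and the most widely listed. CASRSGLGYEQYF, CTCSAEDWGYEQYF and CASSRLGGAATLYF were chosen after their values were seen. The members, lists and tests were chosen with earlier results of these data known. Libraries with the same replicate number were not taken as pairs, since the labels do not say what the numbers mark, and the numbers enter alternatives alone. Their V-J deviations correlated above 0.1 throughout in 0 of 28 group pairs (range of correlations -0.149 to 0.211). With at most 3 same-number pairs in each, these correlations cannot decide whether such libraries were paired. Alternatives were a filter at 20 counts, estimated molecules (counts over 20), leaving out libraries or clonotypes, thinning, other scales, TMM, DESeq2 and, chosen after seeing the data, leaving out near copies. A near copy was an entry with the J segment and CDR3 length of a clonotype at least 100 times as large in its library. Its CDR3 differed from that of the larger clonotype at a single residue at most.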

Additional observations from a re-analysis of the deposited data

Results flagged for a closer look

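These 3 values are differences between treatments in the change from D4 to D11, each past the threshold in edgeR's test of the difference itself. For TRBJ2-2 in counts, the log2 change at D11 against D4 differed from that of control by -4.21 in combination and by -3.41 in trametinib libraries. For TRBJ2-5 in clonotypes, the log2 change was higher than in control by 0.76 in combination libraries. All set a drug against the same 2 control libraries at D11, so they are not independent of each other. Each lost its call without a single control library, replicate 1 of D11 for TRBJ2-2 and replicate 2 of D11 for TRBJ2-5. The trametinib value of TRBJ2-2 lost it without any of 11 libraries taken singly, and under the replicate block (log2 -3.21, adjusted p = 0.114 in edgeR).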

How the results depend on the processing

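Of the differences called, both Dbeta readings (12.03 to 12.4 and -3.92 to -3.16 points without each library in turn) and the 4 members in counts against clonotypes kept their direction and side of the threshold under every alternative run. TRBV partners called numbered 12 to 15 of 24 throughout. Among those named, TRBV3 (log2 0.16) and TRBV12-2 (log2 0.21) lost their call with counts under 20 set to 0, and of the 5 members called in length TRBJ2-4 lost it with medians (0.0625 residues). With counts under 20 set to 0, trametinib against control (2.05 points) and combination against trametinib (-1.88) in the share of clonotypes passed, combination against BGB-283 turned to -1.45 and passed, and the differences in the change between days turned to 0.602 (trametinib) and 2.23 (BGB-283). The same setting gave 0.0560 residues for TRBJ2 minus TRBJ1, -0.0173 for loop length in trametinib against control, 0 members called in clonotypes at D11 against D4, 1 in combination against trametinib, and 0 in counts for trametinib against control in the change between days. Without the 2 control libraries of lowest TRB counts, the share of counts turned to 0.436 points (BGB-283 against control) and 11.04 (combination, change between days), the share of clonotypes to 0.462 (trametinib, change between days) and 0.0552 (BGB-283, change between days), TRBJ2-3 in counts against clonotypes to -0.0354 (and to -0.0729 with 5 added), and the members called became 1 at D11 against D4 and 0 in both changes between days that had 1. Without the largest clonotype of each library those 3 counts were also 1, 0 and 0, and values turned to 3.10 (share of counts, BGB-283 against control), 6.27 (share of counts, combination, change between days), 0.0539 (large TRBJ2, BGB-283 against control) and -1.44 points (large minus all clonotypes).

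TMM factors gave 2, 0 and 0 members for the same 3 counts, and DESeq2 gave 3 at D11 against D4 and 2 for combination against control in the change between days. Estimated molecules (-1.79 points) and a threshold of 0.5% (-0.861) turned the sign for large TRBJ2 clonotypes in combination against control, and log2 odds (-0.00659) that of the share of counts in trametinib against control. Leaving out CDR3 that did not start with C or end with F turned 3 small differences, to -0.0966 points (clonotypes, combination, change between days), -0.00310 residues for trametinib against control and -0.000744 for combination against BGB-283. Thinning turned combination against BGB-283 to -0.0714 points and the combination change between days to -0.34 points in clonotypes. Weighting by counts turned loop length to -0.255 (trametinib against control), -0.0786 (combination against BGB-283) and -0.12 residues (TRBJ2 minus TRBJ1), and medians gave 0.0 for the last. Near copies left out, chosen after seeing the data, turned combination against BGB-283 in clonotypes to -0.10 points and loop length to 0.0282 (combination against control), 0.00716 (BGB-283 against control) and 0.00244 residues (combination against trametinib). The cause was not tested for any of these.

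The replicate block gave -1.75 points for D11 against D4 in clonotypes (no longer past the threshold), -0.317 for trametinib against control and -2.11 for its change between days in the share of counts, -0.658 for the combination change between days in clonotypes, 0.0596 and 0.0375 residues for combination and BGB-283 against control, and 0 members in counts for the trametinib change between days. It ended no other call of the cluster. The V-J deviations of same-number libraries correlated above 0.1 throughout in 0 of 28 group pairs, which cannot decide whether such libraries were paired. The lost calls are therefore given as limits of those differences.

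Without each library in turn, D11 against D4 in clonotypes ran from -2.08 to -1.57 points. In members called, the ranges were 0 to 2 in clonotypes and 0 to 3 in counts for D11 against D4, 0 to 1 in clonotypes for combination against control, 0 to 2 in clonotypes for the combination change between days against control, and 0 to 1 in counts for each drug's change between days against control. In clonotypes, combination against BGB-283 ran from -0.239 to 0.810 points and the combination change between days from -0.658 to 1.16. In counts, BGB-283 against control ran from -5.15 to 2.90, trametinib against control from -3.73 to 4.32, and the changes between days from -9.98 to 7.15 (combination) and from -6.77 to 9.33 (trametinib). Large TRBJ2 clonotypes ran from -15.2 to -9.05 (D11 against D4), from 17.0 to 22.7 (combination against trametinib), from -10.7 to 1.61 (BGB-283 against control) and from -3.01 to 7.90 points (combination against control), and large minus all clonotypes from -0.816 to 2.31. Loop length ran from -0.0279 to 0.0261 (combination), from -0.0209 to 0.0430 (trametinib) and from -0.0147 to 0.0109 residues (BGB-283) against control, from -0.0457 to 0.0182 against trametinib and from -0.0235 to 0.0305 against BGB-283 for combination. TRBJ2-3 and TRBJ2-7 in counts against clonotypes, neither called, ran from -0.0772 to 0.11 and from -0.16 to 0.0089.

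The limits are 2 control libraries at D11, as few as 214 TRB clonotypes in a library, at which the TRBJ2 share of clonotypes is known to ± 6.73 points, and a table of reads whose processing is only partly stated. Near copies made up 1.29% to 15.4% of the clonotypes of a library, and 1592 of the 2089 in all libraries used TRBJ2. The biological coefficient of variation in edgeR was 0.576 for the segments in counts and 0.0404 in clonotypes.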
